A study of Rattus norvegicus with 8 samples.

Results

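The genes described here encode the subunits of oxidative phosphorylation, together with a few assembly factors, isoforms and an inhibitor whose symbols share the same prefixes. Members were chosen by symbol alone: a probe set, the group of short probes that reports on a transcript, was taken when it carried exactly 1 gene symbol starting with Nduf, Uqcr or Atp5, equal to Sdha, Sdhb, Sdhc or Sdhd, or starting with Cox4i, Cox5, Cox6, Cox7 or Cox8. This gave 96 probe sets for 86 genes, out of 31099 probe sets on the array, of which 20832 carried 1 symbol. Another 7 probe sets that pair a member symbol with a second symbol were left out. A filter on low signal kept 92 of the 96, which stand for 84 genes: 45 for complex I, 5 for complex II, 8 for complex III, 15 for complex IV and 19 for complex V. The 4 that were not kept belonged to Cox8b, Cox6b2, Atp5me and Ndufa9, and the last 2 genes had another probe set that was kept.

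The study measured RNA in the ventral prostate of male Sprague-Dawley rats of generation 3, bred from females that had been injected intraperitoneally on gestation days 8 to 14. The control lineage descends from vehicle (DMSO) injections and the vinclozolin lineage, per the sample titles, from injections of vinclozolin, a fungicide known to block the androgen receptor. The 4 groups of 2 arrays were whole ventral prostate at 180 days of age from the control and the vinclozolin lineage, and epithelium of the ventral prostate at 45 days from the same lineages. No animal of generation 3 was itself said to be treated, and the protocol text names only the vehicle for every sample, so the lineage of a sample rests on its title. Each RNA sample was a pool, of several whole prostates (the number is not stated) or of the epithelium of 11 animals. The labels do not say how the 2 samples of a group relate, so some of the variation between them may be technical. Every p-value rests on that variation pooled over the 4 groups and drawn towards a value shared by all probe sets. None measures the spread within a single group. Age and preparation change together between whole prostate and epithelium and cannot be told apart.

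Oxidative phosphorylation is carried out by protein complexes of the inner mitochondrial membrane: complexes I to IV pass electrons to oxygen, all but complex II pump protons on the way, and complex V, the ATP synthase, uses the proton gradient to make ATP. Each complex has core subunits, which include those with the redox centres or the catalytic sites, and accessory subunits, which stabilise and regulate it. The nuclear genes measured here encode most of them, while some core subunits are made from mitochondrial DNA. Several subunits of cytochrome c oxidase (complex IV) exist as isoforms made mainly in muscle, lung or testis. In the prostate, the luminal epithelium is known for secreting citrate, which it withholds from the citric acid cycle that feeds these complexes.

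Promoters of these genes are known for binding sites of nuclear respiratory factors, so the 250 bases before each start were read from RefSeq (build GRCr8), where 78 of the 86 genes had an entry. Both strands were searched for 6 short strings, none of which contains another: NRF1 (CGCATGCG, its own reverse complement), ETS (CCGGAAG, as bound by the GABP factors), YY1 (AAGATGGC), ERR (AAGGTCA, oestrogen-related receptors), a GC box (GGGCGG) and MEF2 (TAAAAATA, a muscle factor). The NRF1 string was found in 10.3% of the member promoters, against 2.82% of the 11701 promoters of genes with a probe set and 1.63% of all 27457 promoters. The ETS string was found in 26.9%, against 12.9% and 7.74%, and the ERR string in 7.69%, against 2.76% and 3.77%. The GC box was less frequent in members (37.2%) than in genes with a probe set (54.2%), and stood at 32.4% over all promoters. YY1 (2.56% against 1.89% and 1.69%) and MEF2 (1.28% against 1.21% and 2.51%) were near their backgrounds. Among complexes, the 15 complex V promoters held the NRF1 string in 26.7% and the ERR string in 26.7%, while none of the 13 complex IV promoters held either. The NRF1, ETS and GC box strings contain the letter pair CG, and the promoter sets differed in it. The median ratio of observed to expected CG pairs was 0.836 in members, 0.695 in genes with a probe set and 0.406 over all promoters. Its part in the shares above was not tested. A match is a description of the letters and not evidence of binding.

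4 promoters are shown, 5′ to 3′ on the strand of the gene, with matched strings in capitals. Ndufa12, an accessory subunit of complex I, had the lowest p-value among subunits common to all tissues in the lineage comparison of whole prostate, and its only match was a reversed GC box. Atp5mg, the g subunit of the ATP synthase, held 3 of the 6 strings (NRF1, a reversed ETS and a reversed ERR). Cox6a2, the isoform of heart and skeletal muscle, was the only one of the 78 genes searched with the MEF2 string, 49 bases before its start. Cox7b2, an isoform known from testis, had the highest log2 change between lineages in epithelium and held a GC box.
Ndufa12, chr7:30658066-30658315, plus strand: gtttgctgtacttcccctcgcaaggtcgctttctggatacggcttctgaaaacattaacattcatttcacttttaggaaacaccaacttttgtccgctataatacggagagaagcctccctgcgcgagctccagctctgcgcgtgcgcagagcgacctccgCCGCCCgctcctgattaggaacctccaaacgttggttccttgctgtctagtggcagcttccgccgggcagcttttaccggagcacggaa
Atp5mg, chr8:54130408-54130657, minus strand: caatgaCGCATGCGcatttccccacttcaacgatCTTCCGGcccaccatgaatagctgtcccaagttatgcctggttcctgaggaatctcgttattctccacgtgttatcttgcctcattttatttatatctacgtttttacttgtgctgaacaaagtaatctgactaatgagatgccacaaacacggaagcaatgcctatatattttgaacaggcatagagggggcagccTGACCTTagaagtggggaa
Cox6a2, chr1:192219717-192219966, minus strand: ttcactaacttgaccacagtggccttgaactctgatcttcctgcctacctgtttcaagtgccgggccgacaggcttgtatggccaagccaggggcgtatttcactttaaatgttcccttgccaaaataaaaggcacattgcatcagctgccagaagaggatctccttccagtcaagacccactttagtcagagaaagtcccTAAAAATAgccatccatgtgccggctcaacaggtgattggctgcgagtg
Cox7b2, chr14:37046831-37047080, plus strand: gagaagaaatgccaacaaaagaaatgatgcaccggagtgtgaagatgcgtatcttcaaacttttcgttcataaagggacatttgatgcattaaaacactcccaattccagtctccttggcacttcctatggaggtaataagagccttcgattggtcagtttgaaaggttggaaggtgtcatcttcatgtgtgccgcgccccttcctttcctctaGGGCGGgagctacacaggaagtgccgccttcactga

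Values below are levels on the log2 scale, log2(intensity + 16) after quantile normalization, on which 4 is a signal of 0, and log2 changes are differences of group means with their standard error (SE). A probe set was called when its adjusted p from limma, corrected over all 21729 probe sets kept, was under 0.05. The deposited arrays had a common trimmed mean of 125, medians of 28.7 to 38.7 and 28.3% to 36.7% of probe sets with an intensity under 16. Members were bright: 73.9% had a mean log2 level of 9 or more, against 11% of all probe sets kept. Their arrays agreed closely, with a median standard deviation (SD) between the 2 arrays of a group of 0.06 to 0.07, against 0.10 to 0.14 over all probe sets. The median level of the 92 members was 10.38 on both control arrays of whole prostate, 10.59 and 10.58 in whole vinclozolin, 10.51 and 10.42 on the control epithelium arrays, and 10.52 and 10.57 on the vinclozolin epithelium arrays.

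Several markers of other cells differed between the groups. They are given here because results below are set beside them, and their relation to the member values was not tested. Skeletal muscle transcripts separated the whole prostate lineages: Myl1, a fast-muscle myosin light chain, was at 8.56 and 8.54 in control and 5.58 and 5.77 in vinclozolin, and 7 of 22 muscle genes tested were called lower in the vinclozolin lineage. The summed intensity of that list was 3988 and 4259 in whole control and 2009 and 2036 in whole vinclozolin; in the epithelium it was 8062 to 9439, led by Acta1 and Tnnc2, while Myl1 was at 4.67 to 5.25. Macrophage markers moved the other way in number, with 2 of 11 called higher in whole vinclozolin (Csf1r, log2 change 1.11, and Fcgr3a, 1.17), although the list's summed intensity was 6862 and 6366 in control and 4681 and 5352 in vinclozolin. Luminal epithelial markers summed to 24002 and 23363 in whole control and 20375 and 20882 in whole vinclozolin, with 7 of 9 negative and Msmb called lower (log2 change −1.55, adjusted p = 0.003 in limma). Smooth muscle markers were negative for 7 of 10 in that comparison, with none called, although their summed intensity was 7312 and 7546 in control and 7929 and 7558 in vinclozolin. The epithelium arrays held luminal markers (summed intensity 21495 to 23682, with no gene of 9 under 16) but also more smooth muscle (18358 to 20243 against 7312 to 7929), fibroblast (9189 to 9859 against 3062 to 3416) and basal epithelial signal (4162 to 4369 against 1104 to 1158), and less adipocyte signal (452 to 552 against 2439 to 2883). Lymphocyte markers summed to 175 and 195 in whole control, 351 and 307 in whole vinclozolin and 120 to 145 in epithelium, and endothelial ones to 227 to 255 in whole prostate and 651 to 779 in epithelium.

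3 of the 4 epithelium arrays also carried sperm transcripts, most of all replicate 2 of the vinclozolin lineage. Prm1, the protamine that packs sperm DNA, had an intensity of 45.6 and 386 in control and 514 and 2555 in vinclozolin epithelium, against 1.5 to 14.8 in whole prostate. The summed intensity of the 6 germ cell genes tested was 89.1, 758, 896 and 4190 in that order, and 40.1 to 80.4 in whole prostate. Counts for the lineage effect in epithelium, and the values that move most, are therefore also given without replicate 2 of the vinclozolin lineage.

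**Figure D1:**
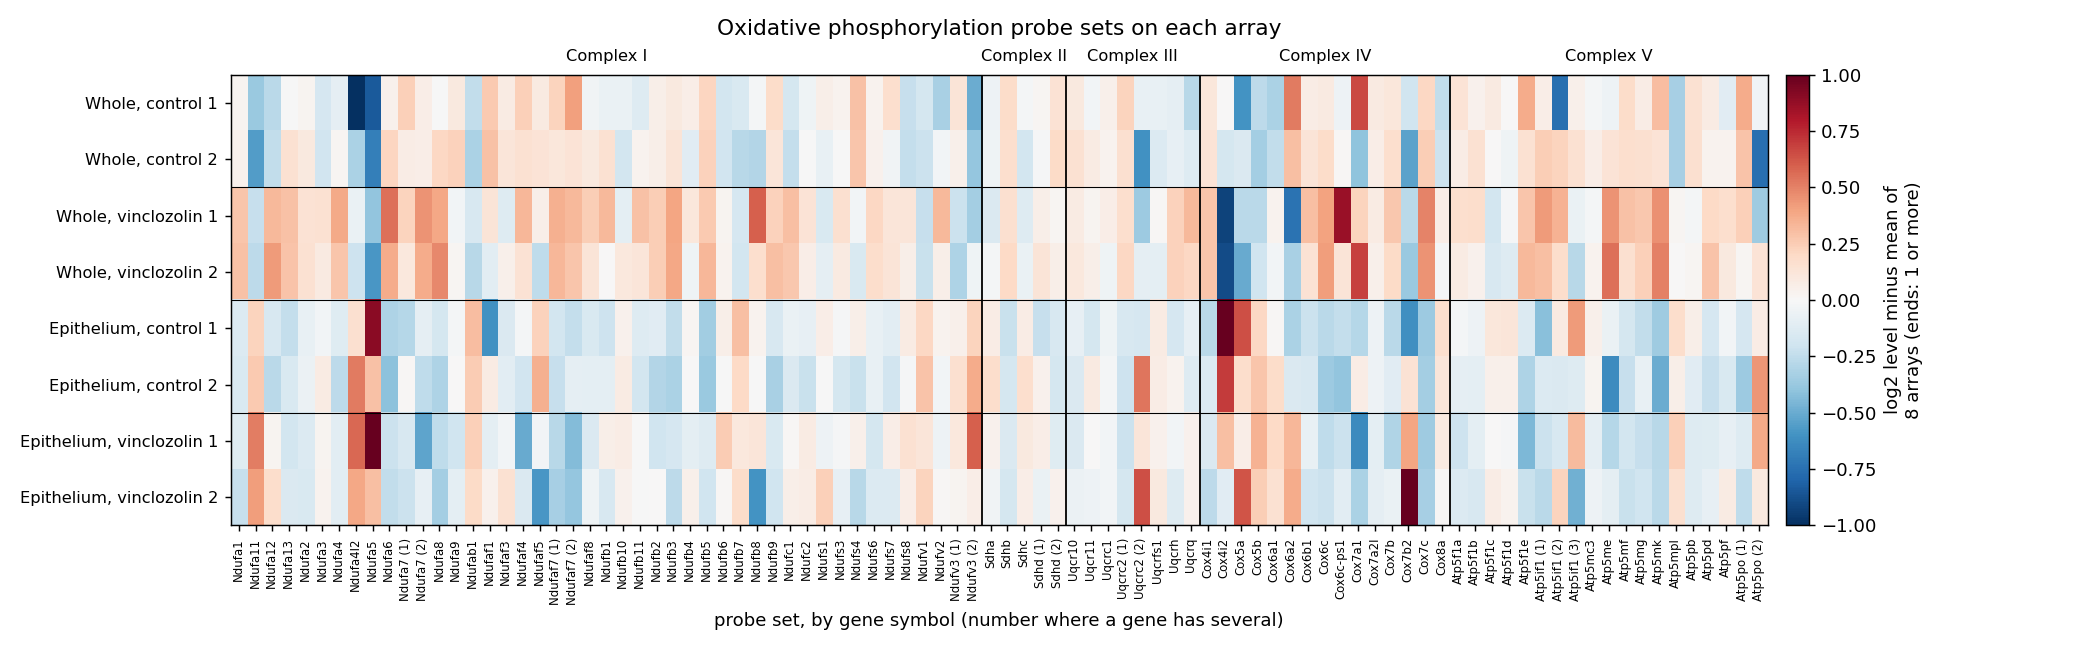
Each column is a kept probe set of an oxidative phosphorylation gene and each line of cells an array; colour is the log2 level minus the mean of the 8 arrays, with the darkest shades standing for 1 or more. The vinclozolin whole prostate arrays are red in much of complex I, where 37 of 45 changes were positive, and blue for the isoforms Cox6a2 and Cox4i2 of complex IV.

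In whole prostate, no oxidative phosphorylation probe set was called between the lineages (0 of 92; 1.74% of all probe sets tested were called), but most had a slightly higher mean in the vinclozolin lineage. The log2 change was positive for 69 of 92 members with a median of 0.11, whereas 48.7% of all probe sets were positive with a median of −0.01. At an unadjusted p under 0.05 in limma, 14 members were higher and 3 lower, against 8.74% and 9.98% of all probe sets. Both vinclozolin arrays lay above both control arrays for 46 members and below them for 15, against 26.1% and 27.8% of all probe sets. Among bright probe sets only (mean 9 or more), 54 of 68 members were positive with a median of 0.12, against 51% and a median of 0.01 over the 2400 bright probe sets tested. The arrays lay apart above for 55.9% and below for 10.3% of the bright members, against 34.5% and 34.2% of the 2400. At an unadjusted p under 0.05 in limma, 14 of the 68 were higher and 1 lower, against 303 and 299 of the 2400. Without control replicate 2, 58 of 92 were positive.

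The number of calls depended on how limma shares the variance. With a prior variance that follows the signal level and is robust to outliers, 21 members were called (19 higher and 2 lower in the vinclozolin lineage), which is 22.8% of members against 8.35% of all probe sets. These shares are not a like comparison, since 73.9% of members but 11% of all probe sets had a mean of 9 or more. Without this prior, 3.12% of the probe sets that bright were called, against 1.74% of all. The share of bright probe sets called with this prior was not computed. Of the 19 higher, 17 were accessory subunits; the lower ones were Ndufv3 and Atp5f1c. The 3'/5' signal ratio of beta-actin, a measure of RNA length, was 3.74 and 3.98 in control and 3.37 and 3.14 in vinclozolin whole prostate; its part in these values, and that of the skeletal and smooth muscle, luminal, macrophage and lymphocyte signal, was not tested. In pools of whole tissue, fewer cells of a type and less RNA per cell cannot be told apart.

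Most of the positive changes belonged to accessory subunits, which were also 55 of the 92 probe sets. Of these 55, 47 had a positive log2 change, with a median of 0.18. The vinclozolin arrays lay apart above the controls for 37 (67.3%) and below for 5 (9.09%). Of 20 core probe sets, 12 were positive, with a median of 0.01, and 4 (20%) lay apart in each direction. The shares apart were 26.1% above and 27.8% below over all probe sets, and 34.5% and 34.2% over those with a mean of 9 or more. These roles were assigned after the values had been seen, and the split was not tested.

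In complex I, the entry point for electrons from NADH, 37 of 45 probe sets were positive with a median of 0.15. Ndufa12, an accessory subunit of the complex, was at 10.41 and 10.44 in control and 11.01 and 11.11 in vinclozolin whole prostate. The 2 groups did not overlap, and the log2 change was 0.63 (SE 0.12, adjusted p = 0.055 in limma), a fold of 1.55. Ndufc1, a small membrane subunit, was at 9.83 and 9.77 in control and 10.30 and 10.27 in vinclozolin, again without overlap (log2 change 0.49, SE 0.11, adjusted p = 0.077). Ndufa4, counted here by its prefix although its protein is now placed in complex IV, was at 11.88 and 11.99 against 12.35 and 12.25 (log2 change 0.36, adjusted p = 0.171). Ndufs4, an accessory subunit needed for assembly of the NADH-binding arm, had the lowest change of the complex: 8.92 and 8.90 in control and 8.60 and 8.48 in vinclozolin (−0.37, adjusted p = 0.278).

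The core subunits of complex I, which include those that carry the flavin and the iron-sulphur clusters, had no common direction. Ndufv2 (0.37, but 0.22 without control replicate 1 and 0.23 without vinclozolin replicate 1) and Ndufs8 (0.32) had the highest log2 changes, Ndufs3 (0.11) and Ndufs7 (0.06) lay near 0, and Ndufv1 (−0.03) and Ndufs1 (−0.11) were negative; their adjusted p-values ran from 0.191 to 0.923. Ndufv3, an accessory subunit with 2 probe sets, gave opposite signs. The brighter one was at 11.14 and 11.06 in control and 10.79 and 10.70 in vinclozolin (−0.36, adjusted p = 0.171), and the dimmer one had a change of 0.25 (adjusted p = 0.565). Of the 7 probe sets for Ndufaf assembly factors, which build the complex but are not part of it, 4 were positive and the median was 0.03.

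Complex II, succinate dehydrogenase, showed the least movement. Sdha, the flavoprotein, was at 9.67 and 9.67 in control and 9.58 and 9.70 in vinclozolin, so the groups overlapped (log2 change −0.03). Sdhb and Sdhc both had changes of 0.00, and the 2 probe sets of the membrane anchor Sdhd gave 0.09 and −0.13; the lowest adjusted p was 0.589. In complex III, which passes electrons from ubiquinol to cytochrome c, the core proteins Uqcrc1 (−0.03), Uqcrfs1, the Rieske protein (0.06), and Uqcrc2 (−0.01 and 0.11) were close to 0. Its small subunit Uqcrq was at 10.67 and 10.82 in control and 11.27 and 11.15 in vinclozolin, without overlap (0.47, SE 0.11, adjusted p = 0.098). Uqcrh, the hinge protein, was at 12.31 on both vinclozolin arrays, above both controls (0.32, adjusted p = 0.225), and Uqcr10 had the lowest change (−0.03).

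In complex IV, 8 of 9 accessory probe sets were positive with a median of 0.15. Cox6a1, the widespread form of subunit VIa, was at 10.73 and 10.81 in control and 11.09 and 11.03 in vinclozolin (0.29, adjusted p = 0.252). Cox4i1, Cox6c, Cox7c and Cox8a had changes of 0.15, 0.27, 0.24 and 0.25, while Cox5a (−0.01), Cox5b (0.06), Cox7b (0.09), Cox6b1 (0.12) and Cox7a2l, which joins complexes III and IV (−0.02), had changes near or below their SE of 0.10 to 0.27. The highest change of the complex, 0.52, came from the pseudogene Cox6c-ps1, whose sequence is close to that of Cox6c, so the 2 may share signal. It was at 5.80 and 5.86 in control and 6.72 and 5.98 in vinclozolin, and its change was 0.15 without vinclozolin replicate 1 and 0.89 without vinclozolin replicate 2. In complex V, 13 of 19 were positive with a median of 0.05. The catalytic subunits Atp5f1a (0.02) and Atp5f1b (0.01) had changes well under their SE of 0.11, and the rotor subunit Atp5f1c was at 11.35 and 11.27 against 11.08 and 11.10 (−0.22, adjusted p = 0.330). Atp5mpl, a small membrane subunit, was at 9.61 and 9.61 in control and 9.96 and 9.94 in vinclozolin (0.34, adjusted p = 0.172). Atp5if1, which inhibits the synthase when it runs backwards, had 3 probe sets with changes of 0.20, 0.53 and −0.28. The second was at 5.94 and 6.92 in control, and its change was 0.04 without control replicate 1 and 1.02 without control replicate 2.

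**Figure D2:**
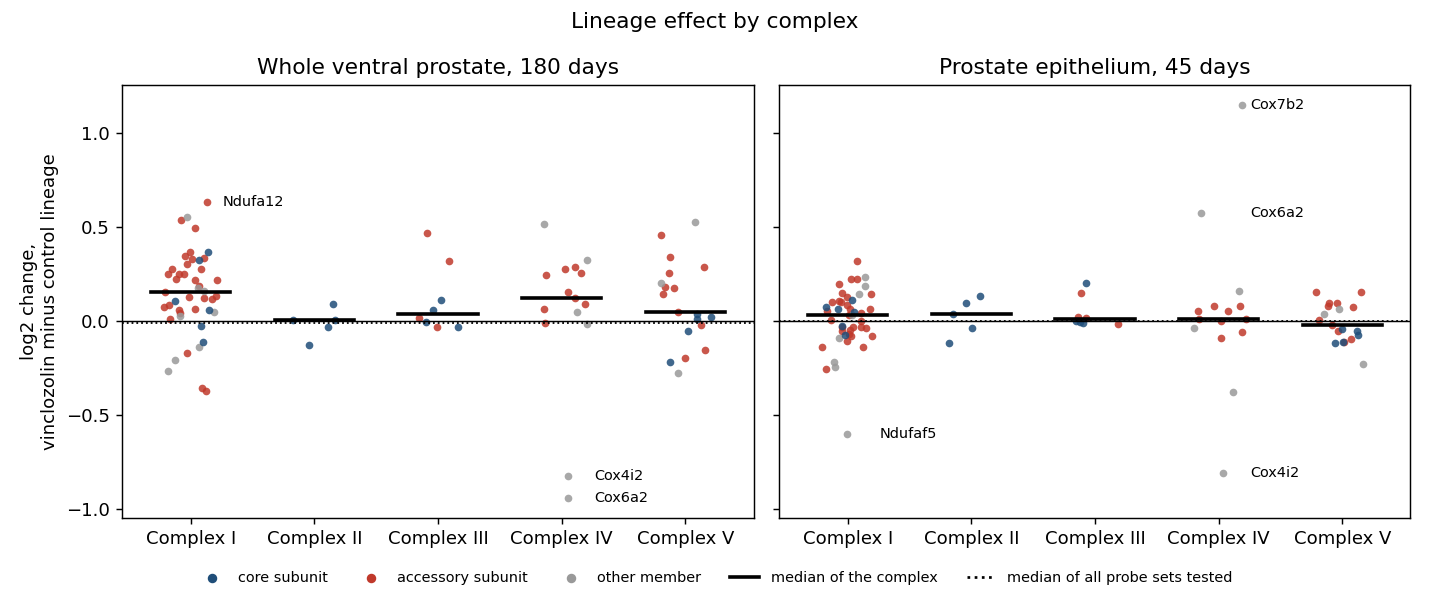
Points are log2 changes (vinclozolin minus control lineage) of single probe sets by complex, in whole prostate at 180 days and in epithelium at 45 days; bars are medians of the complex and the dotted line the median of all probe sets tested. In whole prostate the complex I median stands at 0.15 and the medians of core (blue) and accessory (red) subunits over all complexes are 0.01 and 0.18, while in epithelium all medians lie between −0.02 and 0.04.

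2 of the 5 tissue isoforms kept by the filter had the lowest log2 changes of all members in whole prostate at the pseudocount of 16 used here. Both were dim, so their values depend on it. Cox6a2, the form of subunit VIa made in heart and skeletal muscle, was at 5.65 and 5.43 in whole control and 4.39 and 4.80 in whole vinclozolin. Both vinclozolin values were lower, and the log2 change was −0.94 (SE 0.17, adjusted p = 0.054 in limma); it lies beside the skeletal muscle signal given above, which was also lower in those arrays. Cox4i2, the form of subunit IV known from lung and from cells responding to low oxygen, was at 5.08 and 4.90 in whole control and at 4.15 and 4.18 in whole vinclozolin, close to the value of 4 that stands for no signal (−0.83, SE 0.20, adjusted p = 0.093). With a pseudocount of 1, Cox6a2 was at −1.84 (adjusted p = 0.101) and Cox4i2 at −2.52 (adjusted p = 0.036); with 64 they were at −0.39 (adjusted p = 0.049) and −0.28 (adjusted p = 0.189), the latter above Ndufs4 at −0.33. Cox7a1, a further muscle form, ranged from 4.55 to 5.64 with overlap (0.32, but −0.21 without control replicate 2), and Cox8b stayed at 4.22 to 4.32. The part of the muscle signal in the isoform values was not tested.

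**Figure D3:**
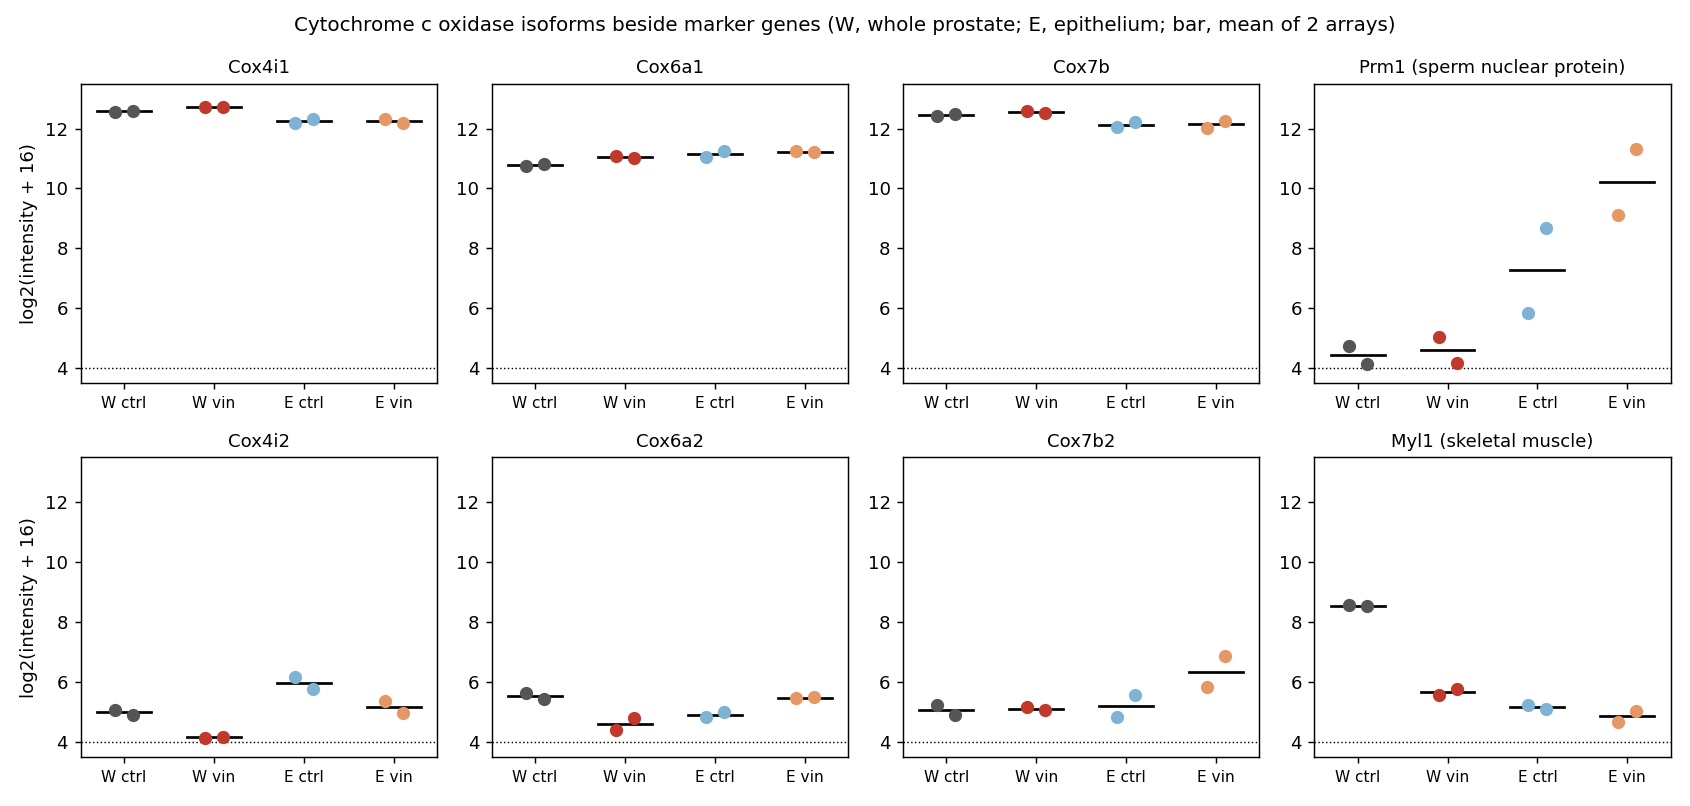
Points are log2(intensity + 16) on single arrays for widespread subunits of complex IV (top), their tissue isoforms (bottom) and a sperm and a muscle marker (right); bars are means of 2 arrays and the dotted line at 4 is a signal of 0. Cox6a2 and Myl1 are both lower in whole vinclozolin than in whole control, and Cox7b2 and Prm1 are both highest on replicate 2 of the vinclozolin epithelium.

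In epithelium at 45 days, no member was called between the lineages (0 of 92, with 0.0092% of all probe sets called), and there was no common direction. The log2 change was positive for 51 of 92 members, with a median of 0.01, against −0.00 over all probe sets. In limma, 3 members had an unadjusted p under 0.05 with a higher and 2 with a lower value, against 5.59% and 5.78% of all probe sets. The arrays lay apart for 17 members in each direction, against 19.7% higher and 19.7% lower over all probe sets, which is near the background. Without vinclozolin replicate 2, again 0 were called, 52 were positive and the median was 0.02. Complex medians ran from −0.02 in complex V to 0.04 in complex II.

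The members with the largest values in epithelium were isoforms and assembly factors. Cox7b2, known from testis, was at 4.82 and 5.58 in control and 5.83 and 6.87 in vinclozolin epithelium (log2 change 1.15, SE 0.38, adjusted p = 0.356), and at 0.63 without vinclozolin replicate 2. Its deposited intensity of 14.2, 34.0, 45.9 and 104 on the 4 epithelium arrays followed the order of the germ cell sum, and was 11.6 to 17.9 in whole prostate. Cox6b2, the sperm form of subunit VIb, was below the filter, with an intensity of 15 and 24.3 in control and 19.1 and 56.9 in vinclozolin epithelium; the highest value was on the same array. The part of the sperm signal in these values was not tested. Cox4i2 was at 6.18 and 5.77 in control and 5.38 and 4.96 in vinclozolin (−0.81, SE 0.20, adjusted p = 0.265), the same sign as in whole prostate. Cox6a2 was at 4.82 and 4.99 in control and 5.46 and 5.50 in vinclozolin epithelium (0.58, adjusted p = 0.313), the opposite sign to whole prostate. Beside it, the skeletal muscle sum was 9439 on both control and 8062 and 8087 on the vinclozolin epithelium arrays. That sum was led by Acta1, and its list shares Des with the smooth muscle list. Of the 22 muscle genes tested, 8 were positive and 14 negative in the epithelium comparison, with 0 called. The part of the muscle signal in the Cox6a2 value was not tested.

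Among the common subunits in epithelium, Ndufa12 again had the highest change of complex I, with 10.53 and 10.42 in control and 10.72 and 10.86 in vinclozolin (0.32, SE 0.12, adjusted p = 0.396). Ndufaf5, an enzyme that modifies a complex I subunit during assembly, had the lowest, with 7.09 and 7.21 in control and 6.83 and 6.28 in vinclozolin (−0.60, adjusted p = 0.366), and −0.32 without vinclozolin replicate 2. Without that array Ndufa12 was at 0.25 and Cox4i2 at −0.60. Ndufaf7, a methyltransferase that also acts in assembly, gave −0.25 and −0.09 on its 2 probe sets. All 5 core probe sets of complex V were slightly negative (median −0.07), from −0.04 for Atp5f1c to −0.12 for Atp5f1a, against SEs of 0.11 to 0.14. Other extremes were Sdhd (0.13) and Sdha (−0.12) in complex II, Uqcrc2 (0.20) and Uqcrh (−0.01) in complex III, and Atp5mk (0.15) and Atp5if1 (−0.23) in complex V. Without vinclozolin replicate 2 the signs of 3 of them turned, to −0.06 for Uqcrc2, 0.04 for Uqcrh and 0.17 for Atp5if1, and Sdhd was at 0.05, Sdha at −0.08 and Atp5mk at 0.15.

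The 2 lineage effects were compared directly as the effect in epithelium minus that in whole prostate. No member was called (0 of 92; 0.29% of all probe sets), and at an unadjusted p under 0.05 in limma 1 was higher and 0 lower, against 7.15% and 6.39% of all probe sets. The difference was positive for 24 of 92 members with a median of −0.10, against 50.9% and 0.01 over all probe sets. Cox6a2 had the lowest p, with a difference of 1.52 (SE 0.24, adjusted p = 0.081). Among negative differences the lowest p belonged to Ndufc1 (−0.35, adjusted p = 0.375), Cox8a (−0.35, adjusted p = 0.385) and Ndufa8, an accessory subunit (−0.38, adjusted p = 0.410). Cox7b2 had a positive difference of 1.11 (adjusted p = 0.430), which was 0.58 without vinclozolin epithelium replicate 2. All 9 accessory probe sets of complex IV had negative differences, with a median of −0.15. Their lineage effects had a median of 0.15 in whole prostate and 0.01 in epithelium, so these signs mostly restate the whole prostate result. The same applies to the 24 of 92 members, where those medians were 0.11 and 0.01. The signs of the 2 lineage effects, which share no array, matched for 58 of 92 members, 63%, against 54.2% of all probe sets.

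Between epithelium at 45 days and whole prostate at 180 days, members were called about as often as all probe sets, and in both, more calls were lower than higher in epithelium. In the control lineage 25 of 92 were called, 27.2% against 27.8% of all probe sets; 11 were higher (12.9% of all) and 14 lower (15% of all). In the vinclozolin lineage 30 were called, 32.6% against 27.4%; 7 were higher (13.1% of all) and 23 lower (14.2% of all). Among probe sets with a mean of 9 or more, 29.4% of members were called against 38.1% of all in the control lineage, and 35.3% against 34.5% in the vinclozolin lineage. With the values as deposited, the control lineage split turned to 11 higher and 7 lower. The median change was −0.13 and −0.20, against −0.05 and −0.06 over all probe sets. These 2 comparisons use different arrays, but each probe set has 1 variance estimate from all 8 arrays, so their calls are not independent. Of the members called, 18 were called in both, 17 of them in the same direction (6 higher and 11 lower). Those 17 are 68% of the control calls and 56.7% of the vinclozolin calls. The same shares over all probe sets were not computed. The sign matched for 79 of 92 members, 85.9% against 75% of all probe sets, and across members the changes correlated at r = 0.756 against 0.752 over all probe sets, a description across genes that share arrays.

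By complex, the calls in complex I were 7 higher and 5 lower in the control lineage and 4 and 13 in the vinclozolin lineage. Those in complex V were 1 and 4, then 0 and 6. The shares called were 26.7% and 37.8% in complex I and 26.3% and 31.6% in complex V, against 27.8% and 27.4% of all probe sets. Higher in epithelium in both lineages were 4 subunits of complex I and 2 of complex IV. Ndufa5, an accessory subunit of the peripheral arm, was at 8.98 and 9.14 in whole control, 9.43 and 9.25 in whole vinclozolin, 10.73 and 10.12 in control epithelium and 10.83 and 10.13 in vinclozolin epithelium. The epithelium arrays differed from each other but all lay above whole prostate. It rose by 1.36 (adjusted p = 0.015) and 1.14 (adjusted p = 0.027), the highest change of any member called. Ndufa11, a membrane subunit at the contact with complex III, rose by 0.71 in each lineage (adjusted p = 0.007 in both). The others were Ndufab1, the mitochondrial acyl carrier protein (0.56 and 0.43), Ndufv1, the flavin-bearing core subunit (0.44 and 0.40), Cox5b (0.54 and 0.53) and Cox4i2 (0.99 and 1.01). Cox4i2 was dim, with an intensity of 1.5 and 2.2 in whole vinclozolin. Over the alternatives its change ran from 0.48 to 1.52 in the control lineage and from 0.35 to 2.83 in the vinclozolin lineage.

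In both lineages 11 probe sets fell, from complexes I, III, IV and V. Cox7c, a small subunit of complex IV, was at 12.40 and 12.43 in whole control, 12.68 and 12.63 in whole vinclozolin, and between 11.82 and 11.85 on the 4 epithelium arrays, with no overlap. It fell by 0.58 (adjusted p = 0.008) and 0.82 (adjusted p = 0.003), the lowest adjusted p among members. Cox6c fell by 0.45 and 0.65, and Atp5mk, a small subunit that links ATP synthase dimers, by 0.65 and 0.75. The others lower in both were Atp5f1e (−0.49 and −0.64), the small rotor subunit of the synthase, Atp5mf (−0.38 and −0.43), Ndufa6 (−0.49 and −0.69), Ndufb3 (−0.39 and −0.61), Ndufb5 (−0.58 and −0.46), Ndufb9 (−0.39 and −0.44), Ndufaf7 (−0.38 and −0.64) and Uqcrc2 (−0.37 and −0.38).

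Cox6a2 was the only member called in opposite directions: it fell by 0.64 in the control lineage (adjusted p = 0.034) and rose by 0.88 in the vinclozolin lineage (adjusted p = 0.012). In the control lineage its adjusted p was 0.092 with a pseudocount of 1 and 0.0502 with 64, which ends that call; in the vinclozolin lineage it was 0.026 and 0.018. Called in the control lineage alone were Ndufa4l2, a relative of Ndufa4 known to respond to low oxygen (1.03), the dim probe set of Ndufv3 (0.73), Ndufb7 (0.46), Atp5mpl (0.45), Cox8a (0.37), Sdhb (−0.38) and Atp5po, the stalk subunit that confers oligomycin sensitivity (−0.59). Ndufa4l2 was dim, with an intensity of 3.7 and 15.9 in whole control, and its change ran from 0.45 to 1.90 over the alternatives. Called in the vinclozolin lineage alone were Ndufa8 (−0.73), the dim probe set of Ndufa7 (−0.72), the second probe set of Ndufaf7 (−0.71), Atp5me (−0.69), Atp5if1 (−0.60), Ndufaf4 (−0.56), Cox4i1 (−0.48), Atp5mg (−0.47), Ndufa1 (−0.46), Ndufa13 (−0.45), Ndufa4 (−0.44) and Ndufs6 (−0.35). A call in 1 lineage and not in the other does not show that the lineages differ, which is the difference tested above. Probe sets of the same gene disagreed for Atp5po, where the dim one gave 0.65, for Uqcrc2, where the dim one gave 0.52 and 0.61, and for Atp5if1, where the other probe sets gave 0.05 and 0.24 in control and 0.09 and −0.23 in vinclozolin. None of the core subunits Sdha (0.17 and 0.09), Uqcrfs1 (0.18 and 0.11), Atp5f1a (−0.16 and −0.30) and Atp5f1b (−0.17 and −0.24) was called.

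These counts depended on single arrays and on scaling. In the control lineage, the count of 25 became 1 and 2 without whole prostate control replicate 1 or 2 and 8 and 9 without epithelium control replicate 1 or 2. In the vinclozolin lineage, the count of 30 became 7 and 11 without whole prostate vinclozolin replicate 1 or 2, and 11 and 16 without epithelium vinclozolin replicate 1 or 2. The split of 11 higher and 14 lower in the control lineage was 5 and 31 when arrays were centred on their median and 11 and 7 with the values as deposited; that of 7 and 23 in the vinclozolin lineage was 5 and 46 and 9 and 24. Beside them, the beta-actin 3'/5' ratio was 2.26 to 2.57 in epithelium and 3.14 to 3.98 in whole prostate, and the smooth muscle, fibroblast, basal and adipocyte signals differed as given above; their part in the differences was not tested.

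**Figure D4:**
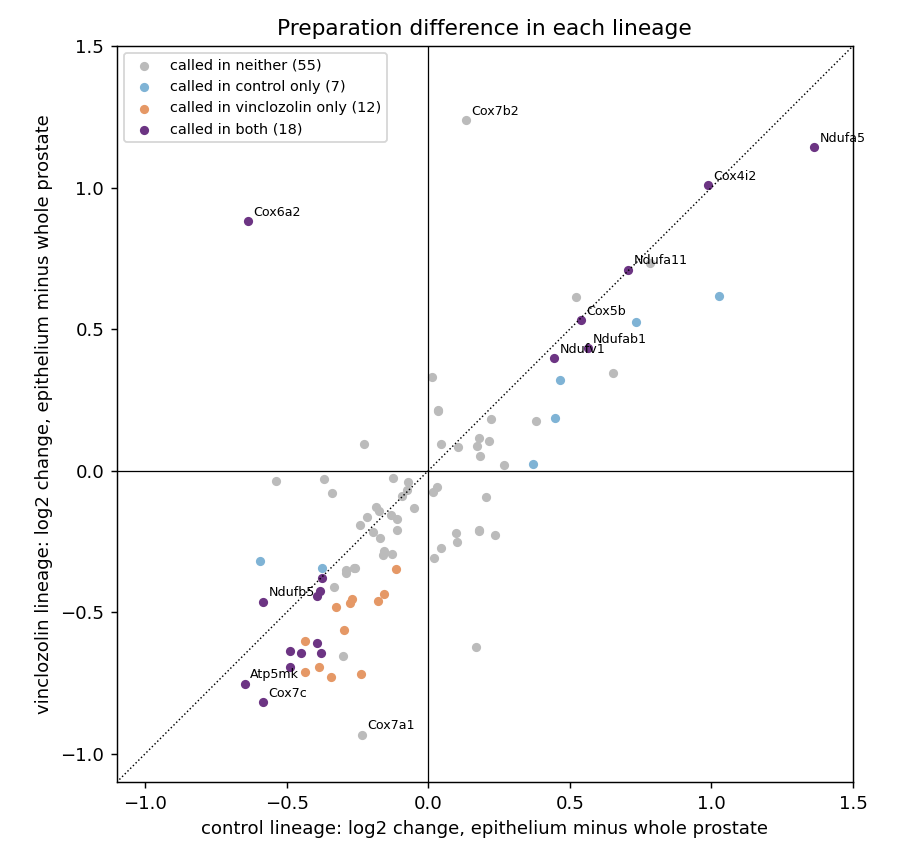
Each point is a member probe set, with its log2 change (epithelium minus whole prostate) in the control lineage on the horizontal axis and in the vinclozolin lineage on the vertical axis; colour gives the calls and the dotted line equal change. Most of the 18 called in both lie near the line, from Cox7c at −0.58 and −0.82 to Ndufa5 at 1.36 and 1.14, and Cox6a2 is the only one of those 18 with opposite signs.

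Of the genes on related lists, 1 was called between lineages, Nnt. Over all probe sets, 1.74% were called in whole prostate and 0.0092% in epithelium. With 2 of 21729 called in epithelium, a count of 0 there says little about any list. None of the genes tested was called in whole prostate or epithelium among 15 electron carriers and citric acid cycle enzymes, 34 further assembly factors, 12 genes of ubiquinone synthesis, 20 regulators of mitochondrial gene expression, 14 carriers and porins, 19 glycolytic genes and 73 mitochondrial ribosomal proteins, which make the subunits encoded by mitochondrial DNA. Among 12 antioxidant genes, Nnt, which makes NADPH in mitochondria from the proton gradient, fell by 0.69 in whole vinclozolin (adjusted p = 0.039). The median change of the ribosomal list in whole prostate was −0.03, with 35 of 73 positive. That of the regulators was −0.07, with Gabpa, a subunit of the factor that binds the ETS string, at −0.84 (adjusted p = 0.060). Citrate synthase, Cs, was at 0.30 (adjusted p = 0.202), and Pet100, an assembly factor of complex IV, at 0.52 (adjusted p = 0.086).

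Between epithelium and whole prostate, most glycolytic genes called were higher in epithelium and most regulators called were lower. Of 19 glycolytic genes, 7 were higher and 1 lower in control epithelium (median 0.39) and 8 higher and 0 lower in vinclozolin epithelium (median 0.43); Slc2a1, the glucose transporter GLUT1, rose by 1.62 and 1.23 and Hk2, hexokinase 2, by 2.23 and 1.12. Of 20 regulators, 0 were higher and 6 lower in the control lineage (median −0.36) and 1 higher and 5 lower in the vinclozolin lineage (median −0.16), among them Tfb2m, a mitochondrial transcription factor (−1.35 and −1.05), and Gabpb1 (−0.65 and −0.86). The citric acid cycle list had 1 higher and 3 lower, then 1 and 1; assembly factors 2 higher and 4 lower, then 1 and 6; ubiquinone synthesis 0 and 2, then 0 and 0. Carriers and porins had 2 higher and 1 lower, then 4 and 1, led by Slc25a4, the ATP/ADP carrier of muscle (1.18 and 1.86), and Ucp2 (1.19 and 0.74). Antioxidant genes had 2 higher and 0 lower in each lineage, including Sod2 (0.65 and 0.48), and mitochondrial ribosomal proteins 2 higher and 4 lower in each. Set against the 27.8% and 27.4% of all probe sets called, the shares were 42.1% in both lineages for glycolysis, 30% in both for the regulators and 8.22% in both for the ribosomal proteins. They were 26.7% and 13.3% for the citric acid cycle, 17.6% and 20.6% for assembly factors, 16.7% and 0% for ubiquinone synthesis, 21.4% and 35.7% for carriers and porins, and 16.7% in both for antioxidant genes.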

How the data were processed

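RNA of 8 samples was measured on Affymetrix rat arrays. The authors deposited 1 intensity per probe set and array on a linear scale; the values share a trimmed mean per array, while their software and background correction are not given in the sources used here. Gene symbols came from the platform annotation. From the deposited intensity, log2(intensity + 16) was computed, 57 control probe sets were left out, arrays were quantile normalized and the 30% of probe sets with the lowest mean were left out. limma 3.58.1 (R 4.3.3) fitted 1 mean per group over all 8 arrays (4 residual degrees of freedom), with Benjamini-Hochberg adjustment over 21729 probe sets and a threshold of 0.05; the code was tested on simulated data. Members, gene lists, roles and motifs were chosen with earlier results of these data known. Named were the members called, those of lowest p in each direction where fewer than 3 were called, the extremes of each complex, core subunits and isoform families, and genes whose probe sets disagreed. Alternatives changed normalization, pseudocount (1 and 64), filter, prior, weights, the replicate block and single arrays. Replicate numbers did not pair the samples: samples with the same number correlated at −0.02 to 0.03 in their deviations over all probe sets, and at −0.46 to 0.28, with both signs, over the members. With 2 arrays a group, the number of arrays limits the precision. Figures were drawn with matplotlib 3.10.9.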

Additional observations from a re-analysis of the deposited data

How the results depend on the processing

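Alternatives were compared for the count of oxidative phosphorylation probe sets called, their median log2 change and their number with a positive change. For the lineage effect in whole prostate, 0 were called; 1 was called with the values as deposited, 1 with median centring, 1 with a pseudocount of 1, 4 with a pseudocount of 64, 3 with a filter at the 50th percentile, 3 with array weights and 21 with the trended robust prior, and its median was 0.19 as deposited. For epithelium, 0 were called in every alternative run, and the median was −0.028 with median centring. For the difference of lineage effects, 1 was called with the trended robust prior; the median was −0.20 and 14 were positive as deposited, and the median was −0.17 with median centring. For the preparation difference in the control lineage, 12 were called without a filter, 45 with the trended robust prior and 11 from its 4 arrays alone, with a range of 1 to 18 without single arrays; the median was −0.035 as deposited and −0.27, with 21 positive, under median centring. In the vinclozolin lineage, 51 were called with median centring, 53 with the trended robust prior and 14 from its 4 arrays alone, with 7 to 29 without single arrays; the median was −0.42, with 17 positive, under median centring, −0.16 with a pseudocount of 64, and −0.21 to −0.14 without single arrays. Median centring moved the median of all probe sets to −0.20 and −0.17 in the preparation differences, and turned Sdha in the control lineage to −0.14 and Sdhc in the vinclozolin lineage to −0.13. With the replicate block, 0, 0 and 0 were called in the lineage comparisons and their difference, and 9 and 14 in the preparation differences; the numbers do not pair the samples, and the block leaves fewer degrees of freedom. Causes of the other shifts were not tested. Each group had 2 arrays, which limits the precision of every value.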
